A study of Mus musculus with 2 samples.

Results

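The IgLON genes Ntm, Opcml, Lsamp, Negr1 and Iglon5 encode a small family of neuronal adhesion proteins, and all 5 of 21938 protein-coding genes were followed here in the DNase-seq region lists of mouse hippocampus. They were taken by name from the GENCODE M21 annotation, and the family was selected on region counts and heights of these same lists. Its values are therefore descriptions, with no test. DNase-seq maps DNA that the enzyme DNase I can cut because nucleosomes do not cover it, as at active promoters and enhancers. The tissue came from hippocampus (in the labels, a layer of it) of male B6CASTF1/J mice aged 10 days, a cross of C57BL/6J with CAST/EiJ, with no treatment given in the labels. There was 1 group of 2 libraries, biological replicates 1 and 2, each described as its own pooled tissue sample of 3 males. The labels do not say if the 2 samples had animals in common.

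Both replicates carry the same donor label, so the spread between them covers only these tissue samples and no control group exists. The main region lists held 54546 regions in replicate 1 and 74278 in replicate 2, and a longer list per library held 94187 and 131213. Of the marker genes checked, 4 of 4 for neurons and 6 of 6 for hippocampal glutamatergic neurons were open in both libraries, against 1 of 3 for interneurons, 1 of 4 for astrocytes, 0 of 3 for microglia and 1 of 3 for endothelium. Of all protein-coding genes 59.3% were. Replicates 1 and 2 alone gave 1 of 3 and 3 of 3 for interneurons. For astrocytes they gave 3 of 4 and 2 of 4, and for microglia 0 of 3 and 1 of 3. The astrocyte gene open in both, Gfap, had higher regions (3.00 and 4.24) than all 4 neuron genes. Of the oligodendrocyte lineage genes checked, Olig1 and Olig2 were open in both libraries and Mog was not. In bulk tissue, fewer open cells and less opening per cell cannot be told apart, and reads of the C57BL/6J and CAST/EiJ copies were not separated.

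IgLON proteins are short chains of immunoglobulin domains held to the outer neuronal membrane by a glycosylphosphatidylinositol anchor. They bind one another on facing cells, as like or unlike pairs, and are known for roles in neurite growth and synapse formation. Ntm encodes neurotrimin, Opcml the opioid-binding cell adhesion molecule, Lsamp the limbic system-associated membrane protein, Negr1 neuronal growth regulator 1, and Iglon5 the target of autoantibodies in a human sleep and neurodegeneration disorder. Ntm and Opcml lie tail to tail on chromosome 9, and long first introns with a second promoter inside the gene are annotated for Ntm, Opcml and Lsamp.

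Coordinates are those of mm10 (GRCm38). Opcml (ENSMUSG00000062257.13) spans chr9:27790775-28925410 on the plus strand and Ntm (ENSMUSG00000059974.10) chr9:28994750-29963141 on the minus strand. Lsamp (ENSMUSG00000061080.11) spans chr16:39984361-42181679 and Negr1 (ENSMUSG00000040037.13) chr3:156561794-157316445, both on the plus strand, and Iglon5 (ENSMUSG00000013367.5) chr7:43472904-43490075 on the minus strand. Lsamp covers 2197 kb and is the 6th longest by locus of all protein-coding genes, Opcml 1135 kb, Ntm 968 kb and Negr1 755 kb. Iglon5 covers only 17.2 kb.

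The sequences that the start regions rest on are shown first, because the open starts of the family differ in base composition and in where their footprints lie. A footprint is a short stretch that the authors listed as protected from cutting, as under a bound protein. The highest region at a start was chosen by its mean height (the authors' signal value) over both libraries. In replicate 1 alone the one at the inner Ntm start, at 0.779, was below other regions there, at 0.805 and 0.817. Each stretch is the reference (C57BL/6J) sequence of the highest region at an open start, and for Negr1 also of the region over the start, outside the exons of the gene. The stretches are written in the direction of transcription, with capitals for bases inside footprints of both libraries. They lie at chr16:39984201-39984360 (Lsamp outer start, +), chr16:41532661-41532857 (Lsamp inner start, +), chr3:156561621-156561793 (over the Negr1 start, +), chr3:156560841-156561140 (upstream of Negr1, +), chr7:43490181-43490440 (Iglon5, -), chr9:29963142-29963300 (Ntm outer start, -), chr9:29411507-29411555 (Ntm inner start, -) and chr9:28404413-28404520 (Opcml inner start, +).
Lsamp outer start: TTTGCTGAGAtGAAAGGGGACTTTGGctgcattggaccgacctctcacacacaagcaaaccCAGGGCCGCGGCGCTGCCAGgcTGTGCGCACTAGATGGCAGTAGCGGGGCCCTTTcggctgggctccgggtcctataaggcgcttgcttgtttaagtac
Lsamp inner start: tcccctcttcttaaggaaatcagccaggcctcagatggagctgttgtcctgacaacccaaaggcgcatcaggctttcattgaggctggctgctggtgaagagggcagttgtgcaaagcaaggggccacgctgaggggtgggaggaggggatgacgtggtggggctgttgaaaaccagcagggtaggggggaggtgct
Negr1 over the start: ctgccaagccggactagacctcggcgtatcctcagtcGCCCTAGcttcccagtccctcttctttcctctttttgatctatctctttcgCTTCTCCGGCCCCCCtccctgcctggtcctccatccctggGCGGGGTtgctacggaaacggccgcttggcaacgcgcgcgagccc
Negr1 upstream: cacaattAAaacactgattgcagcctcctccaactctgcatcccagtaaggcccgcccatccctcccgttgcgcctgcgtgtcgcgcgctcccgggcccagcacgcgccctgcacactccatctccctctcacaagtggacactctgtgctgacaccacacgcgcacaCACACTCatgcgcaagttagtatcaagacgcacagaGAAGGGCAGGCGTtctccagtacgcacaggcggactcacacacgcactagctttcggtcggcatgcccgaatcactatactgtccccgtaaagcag
Iglon5: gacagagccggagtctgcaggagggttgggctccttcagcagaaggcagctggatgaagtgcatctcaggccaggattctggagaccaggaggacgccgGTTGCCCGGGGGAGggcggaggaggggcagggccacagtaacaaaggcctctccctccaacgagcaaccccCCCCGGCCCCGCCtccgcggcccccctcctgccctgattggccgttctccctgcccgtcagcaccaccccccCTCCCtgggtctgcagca
Ntm outer start: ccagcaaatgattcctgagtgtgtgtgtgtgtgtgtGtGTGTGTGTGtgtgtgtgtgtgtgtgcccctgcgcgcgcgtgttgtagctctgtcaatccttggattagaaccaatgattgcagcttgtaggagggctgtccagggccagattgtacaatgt
Ntm inner start: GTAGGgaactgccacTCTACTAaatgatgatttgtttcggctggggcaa
Opcml inner start: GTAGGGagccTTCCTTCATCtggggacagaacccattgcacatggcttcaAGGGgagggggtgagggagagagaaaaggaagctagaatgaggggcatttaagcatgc

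The stretches differed in how their footprints were laid out. At Lsamp, 78 of 160 bases lay in footprints of both libraries, at the upstream end and in the middle of the stretch, with none in the part next to the outer start. At Iglon5 the capitals, 32 of 260 bases, fell on runs of C and G, and at the outer Ntm start they fell on a GT repeat, 10 of 159 bases. The inner Ntm and Opcml stretches are introns that begin right after an exon of their start group, and in both genes the first bases of the intron, GTAGG, were in footprints of both libraries. At the inner Lsamp start 0 of 197 bases were. The Negr1 stretches had 29 of 173 bases in such footprints over the start and 22 of 300 upstream. The region at the outer Opcml start, 194 bp long, lay wholly in annotated exons and is not printed.

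Starts of a gene within 1000 bp of the next were joined into groups, which turned 37 annotated transcripts into 14 start groups. A group was called open where a region of the main list lay within 1000 bp of a start in both libraries. By that rule 8 of 14 groups were open, where 30.9% of all start groups of protein-coding genes were, and each of the 5 genes had at least 1 open group, where 59.3% of all protein-coding genes did. The outermost start was open in all 5 genes. Ntm, Opcml and Lsamp each had an inner open start as well, so that 3 of 5 genes held at least 2 open groups, against 7.74% of all genes. That share is over all genes, also those like Negr1 with only 1 annotated group, which cannot hold 2.

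Height is the signal value the authors gave each region. Values are given for replicate 1 first. At the outer Lsamp start the highest region reached 3.11 and then 3.83 (3.47 ± 0.512, mean ± SD, n = 2), and at Negr1 it reached 2.31 and 2.69 (2.50 ± 0.269). The Negr1 values come from different regions, so that SD is not the spread of 1 region. The region over the Negr1 start was 2.31 and 2.56 high, and the one upstream 2.27 and 2.69. At Iglon5 the highest region reached 2.00 and 2.21 (2.11 ± 0.151). These 3 starts were the highest of the family, each above the next in both libraries with no overlap of their values.

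The starts of Ntm and Opcml were lower. The inner Opcml start reached 1.51 and 1.80 (1.65 ± 0.204), and the outer one 0.880 and 1.47 (1.18 ± 0.421). The outer Ntm start reached 1.38 and 1.32 (1.35 ± 0.0430), and the inner one 0.817 and 1.31 (1.06 ± 0.345). The values of the inner Ntm start come from different regions, so that SD is not the spread of 1 region. The region at 1.31 in replicate 2 was 0.779 high in replicate 1. At the inner Lsamp start the values were 1.14 and 1.20 (1.17 ± 0.0370). Among the outer Ntm, outer Opcml, inner Lsamp and inner Ntm starts, which follow each other in that order of their means, each neighbouring pair overlapped between libraries and was not separated by its spread.

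The balance between outer and inner start differed among the 3 genes that have both. In Lsamp the outer start was higher in both libraries by a wide margin, 3.11 against 1.14 and 3.83 against 1.20. In Opcml the inner start was the higher one in both libraries, 1.51 against 0.880 and 1.80 against 1.47. In Ntm the outer start was above the inner one in replicate 1, at 1.38 against 0.817, and nearly level in replicate 2, at 1.32 against 1.31.

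**Figure D1:**
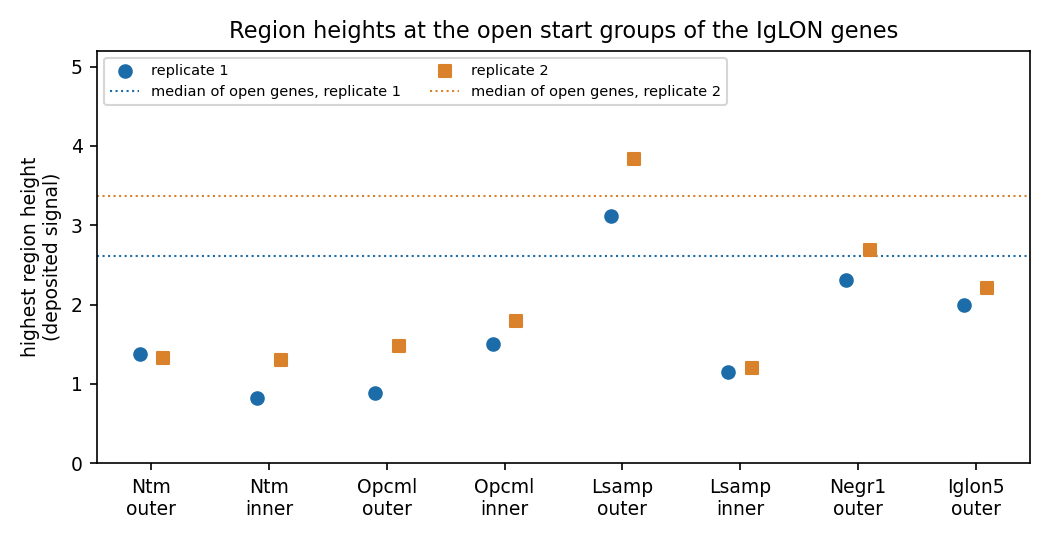
Highest region height (deposited signal, vertical axis) at the 8 open start groups of the 5 genes, 1 point per library, with dotted lines at the median of the 13008 protein-coding genes open in both libraries. The outer Lsamp start lies above the median of its own library in both, and the other 7 groups lie below it in both.

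Set among the 13008 genes open in both libraries, whose highest promoter region had a median height of 2.61 in replicate 1 and 3.36 in replicate 2, the family fell in the lower and middle part. Lsamp stood at percentile 59.2 and 58.4 in replicates 1 and 2, Negr1 at 43.9 and 37.9, and Iglon5 at 36.9 and 29.0. Opcml stood at 25.1 and 20.98, and Ntm at 22.0 and 12.02. Ntm was the lowest of the 5 in both libraries.

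Most regions at the open starts were found in both libraries, and the remainder were low. Negr1 had 4 regions in each library, from upstream to downstream 2.27, 2.31, 1.27 and 0.691 high in replicate 1, against 2.69, 2.56, 1.53 and 0.819 for replicate 2. The first lay 654 and 634 bp upstream of the nearest Negr1 start, inside the body of the non-coding RNA 4930570G19Rik (chr3:156546753-156561746), which runs the other way and starts within the second region. Regions in 1 library only included those of height 0.792 and 0.591 inside Lsamp in replicate 1, 0.819 in Ntm and 0.798 in Iglon5 in replicate 2. The region closest to the 1000 bp limit was 1 of 22 bp in Opcml, of height 0.612 and 999 bp from a start, in replicate 2 alone, and just outside it a shared region upstream of Negr1, at 0.585 and 0.934, lay 1062 bp from the nearest start.

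The other 6 start groups were closed. They were 3 inner groups of Ntm (starts at chr9 29014259, 29109782 and 29185665), 1 of Opcml (chr9 28661629), 1 of Lsamp (chr16 42143984 to 42144025) and 1 of Iglon5 (chr7 43478233). None had a region in the main or the longer list, a footprint, or a base listed by the authors at a false discovery rate of 0.05 or lower, in either library. Of the 9 inner groups, 3 were open, where 11.2% of all inner groups were. All 3 open ones begin a coding transcript, 3 of 6 such groups (18.3% of all such groups), and 0 of 3 groups with no coding transcript were open (6.14% of all).

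Open and closed starts of the family differed in CpG content, the ratio of observed to expected CG pairs within 500 bp, which is high at the CpG-rich promoters of many broadly used genes. The open groups ranged from 0.346 to 0.776 with a median of 0.559, and the closed ones from 0.0504 to 0.364 with a median of 0.158. The ranges overlapped only where the closed Ntm start at 29014259 (0.364) exceeded the outer Opcml start (0.346). Across all protein-coding start groups the medians were 0.712 for 15020 open and 0.224 for 33587 closed groups, so the family's own median, 0.559, lay below the median of usual open starts, 0.712, though Negr1 (0.776) and the inner Opcml start (0.767) lay above it.

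The CpG ratio followed the start heights in some genes and not in others. The inner Opcml start had 0.767 against 0.346 at the lower outer start, and the outer Lsamp start had 0.622 against 0.465 at the lower inner one. In Ntm the order was the other way: the inner start had 0.654 and the outer, which was at least as high in both libraries, 0.466. Negr1 had the highest ratio, 0.776, and Iglon5 0.495 at a GC content of 70.2%.

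**Figure D2:**
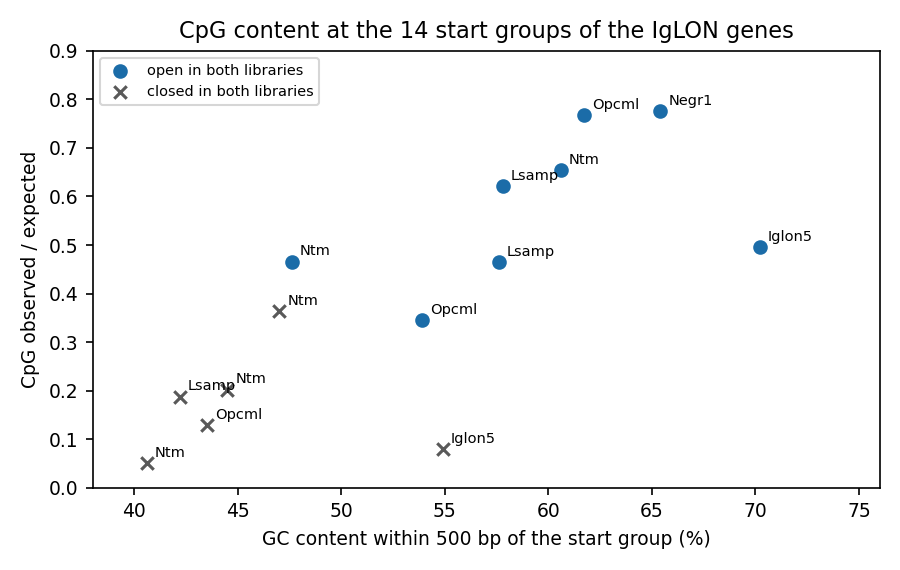
CpG observed over expected (vertical axis) against GC content in percent (horizontal axis) within 500 bp of each of the 14 start groups, labelled by gene, with dots for groups open in both libraries and crosses for groups closed in both. The 8 open groups lie between 0.346 and 0.776, and of the 6 closed groups only 1 Ntm start reaches into that range.

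Beyond the starts, regions over 1000 bp from every annotated start of any gene were called distal, and they were counted over each gene with 10 kb added at either end. A distal region of replicate 1 was shared where it overlapped one of replicate 2. The 5 loci held 56 shared distal regions, and all 5 loci held at least 1, where 44.1% of all protein-coding genes did. For the 4 long genes the fitting background is the 624 genes with a locus of 300 kb or more, of which 92.1% held at least 1, with a median of 4.

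Ntm held the most in the main lists. It had 26 distal regions in replicate 1 and 30 in replicate 2, of which 24 were shared, 2.43 per 100 kb, the 4th highest count of all protein-coding genes, level with Asic2, although 2 of the 24 overlap each other. Lsamp had 18 and 19 with 17 shared, 0.767 per 100 kb, and Negr1 had 8 and 10 with 7 shared, 0.904 per 100 kb. Opcml had 7 and 14 with 6 shared, 0.520 per 100 kb, and the short Iglon5 locus had 2 and 3 with 2 shared. The lead of Ntm did not hold with the stronger 50% of regions, which left 6 in Ntm and 10 in Lsamp.

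Against a median of 0.839 per 100 kb over the long loci, only Ntm stood far from the middle. Its density was at percentile 92.3 of the 624 long loci, Negr1 at 54.2, Lsamp at 47.3 and Opcml at 31.1. Ntm and Opcml, neighbours of like length that face each other tail to tail, thus held 24 and 6 shared distal regions. That gap depends on how deep the lists go: with the longer lists the counts were 36 and 25. In Opcml 8 regions were found in replicate 2 alone, and 7 of those 8 were in the longer list of replicate 1, while in Ntm 6 were, of which 4 were in that list. The 69.3 kb between the ends of the genes held 0 regions in replicate 1 and 1 in replicate 2.

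**Figure D3:**
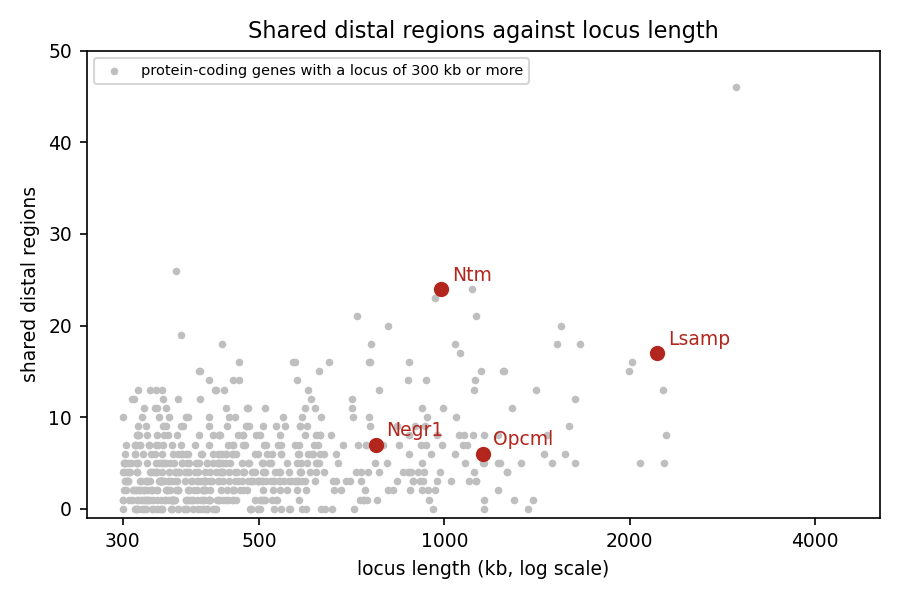
Shared distal regions (vertical axis) against locus length in kb (horizontal axis, log scale) for protein-coding genes with a locus of 300 kb or more, with the 4 long IgLON genes in red. Ntm, at 24, lies near the top for its length and Opcml, at 6, lies low, and 1 locus with 117 regions lies above the axis, which ends at 50.

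By locus length and shared count together, the genes most like Ntm were Camta1 and Asic2, with 23 and 24 shared regions in 965 and 1108 kb. The likeness is the distance on log2 length and log2 count over 1 set of 2 libraries, and it says nothing else about the genes. The nearest to Opcml were Cntn4 and Nrg1 with 6 and 7, to Lsamp Macrod2 and Dlg2 with 16 and 15, to Negr1 Zbtb20 and Nav3 with 7 each, and to Iglon5 Nr4a2 and Tmem50a with 2 each. Cntn4 is itself an immunoglobulin adhesion gene.

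Where the shared distal regions lay differed as well. In Ntm all 24 were intronic, 17 of them in intron 1, between the outer and the inner open start, 3.09 per 100 kb over 551 kb. From the inner start to the gene end there were 7, or 1.68 per 100 kb. In Opcml 4 lay between the open starts (0.653 per 100 kb) and 2 beyond (0.383). Lsamp was the reverse, with 8 between its open starts over 1549 kb (0.517 per 100 kb) and 7 from the inner start to the gene end over 649 kb (1.08 per 100 kb), plus 2 downstream. No shared distal region of the family lay in an exon of its own gene.

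**Figure D4:**
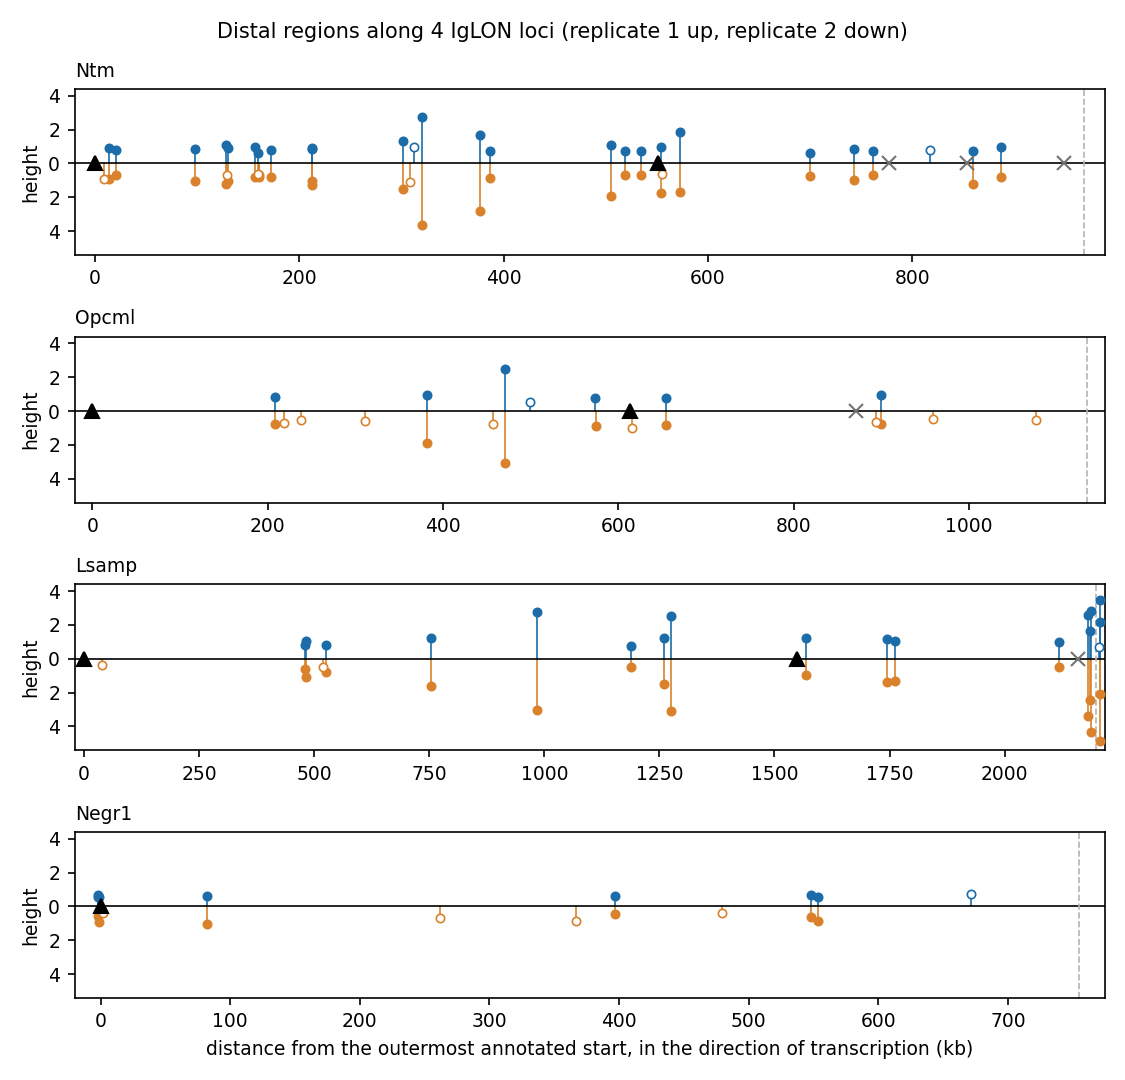
Distal regions along Ntm, Opcml, Lsamp and Negr1 by distance in kb from the outermost start (horizontal axis), with height (deposited signal) drawn upward for replicate 1 and downward for replicate 2. Filled points overlap a region of the other library, open points do not, triangles are open starts, crosses are closed starts and the dashed line is the gene end. Ntm regions crowd between its open starts, and the highest Lsamp regions stand at the gene end.

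The most marked group was at the 3′ end of Lsamp. From intron 8 of the transcript Lsamp-206 to less than 10 kb past the gene, 5 shared regions stood close together. Their heights, replicate 1 first, were 2.60 and 3.36, 1.62 and 2.43, 2.80 and 4.33, 3.49 and 4.87, and 2.17 and 2.08. The 4th of these, a region of 140 bp downstream of the gene at chr16:42190281-42190420, was the highest distal region of the family. It stood at percentile 97.4 and 97.5 of all 26833 shared distal regions, above the Lsamp start regions, and it lay 5364 bp from the nearest annotated start of any gene. The other high Lsamp regions were in intron 2, at 2.79 and 3.03 (chr16:40968181-40968380) and 2.52 and 3.10 (chr16:41258401-41258600).

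In Ntm and Opcml 1 region in intron 1 stood above the rest of its gene. In Ntm it was chr9:29643361-29643540, at 2.73 and 3.65, 320 kb into the gene and higher than both Ntm starts in both libraries. In Opcml it was chr9:28261481-28261680, at 2.51 and 3.08, 471 kb into the gene and likewise above both Opcml starts. The median over shared distal regions was 0.892 and 0.997 in Ntm, and 0.883 and 0.852 in Opcml, below the medians of 1.04 and 1.27 over all shared distal regions. Lsamp, at 1.25 and 1.47, was above them in both libraries.

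Negr1 had no high distal region. Its 7 shared regions spanned 0.534 to 0.704 in replicate 1 and, for replicate 2, 0.459 to 1.05, with medians of 0.622 and 0.847. However, 2 of the 7 overlap the same replicate 2 region, whose height of 0.934 is counted 2 times in the median of 0.847. Of the 7, 3 were upstream, within 2.2 kb of the start, and 4 were spread over introns 1, 2 and 4. The 2 of Iglon5 lay in neighbouring genes: 1 in 4931406B18Rik upstream, at 0.999 and 1.48, and 1 in Vsig10l downstream, at 0.861 and 0.907.

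The highest shared distal region of each long gene, by mean height over both libraries, is printed in the direction of transcription. Capitals again mark bases in footprints of both libraries. They lie at chr9:29643361-29643540 (Ntm, -), chr9:28261481-28261680 (Opcml, +), chr16:42190281-42190420 (Lsamp, +) and chr3:156644104-156644220 (Negr1, +). In replicate 1 alone the Negr1 region, at 0.641, was below chr3:157109478-157109660 at 0.704 and chr3:156559481-156559704 at 0.654. The highest region of Iglon5 lies in an untranslated region of 4931406B18Rik and is not printed.
Ntm intron 1: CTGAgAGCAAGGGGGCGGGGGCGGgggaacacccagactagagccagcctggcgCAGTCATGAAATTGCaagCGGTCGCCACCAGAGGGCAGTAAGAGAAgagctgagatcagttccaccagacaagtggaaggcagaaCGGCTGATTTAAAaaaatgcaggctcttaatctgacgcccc
Opcml intron 1: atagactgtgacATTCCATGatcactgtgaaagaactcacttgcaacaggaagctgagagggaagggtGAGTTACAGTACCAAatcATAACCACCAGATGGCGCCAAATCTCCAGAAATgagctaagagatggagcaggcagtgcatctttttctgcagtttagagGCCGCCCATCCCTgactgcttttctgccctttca
Lsamp downstream: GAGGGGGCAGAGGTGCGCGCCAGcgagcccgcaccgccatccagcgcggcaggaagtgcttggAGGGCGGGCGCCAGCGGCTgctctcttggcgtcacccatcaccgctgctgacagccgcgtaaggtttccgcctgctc
Negr1 intron 1: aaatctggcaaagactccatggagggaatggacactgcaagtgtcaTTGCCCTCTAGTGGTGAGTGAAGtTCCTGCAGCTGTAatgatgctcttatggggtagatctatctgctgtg

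In 3 of these 4 sequences the central capitals cover a match to the motif of CTCF, the zinc finger protein that marks insulators and chromatin loop ends. Counted from the first printed base, the match takes bases 79 to 90 in Ntm, 91 to 102 in Opcml and, on the opposite strand, 49 to 60 in Negr1, and all 12 bases of each match were in footprints of both libraries. In Ntm a match to the EGR motif GCGNGGGCG also lay wholly in capitals, at bases 15 to 23, overlapping matches to the GC box GGGCGG. The Lsamp sequence, with 71.4% GC and 15 CG pairs in 140 bases, had a GC box in capitals at bases 65 to 70 and no CTCF match.

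Over the family CTCF matches were as frequent as elsewhere. They stood in 8 of 56 shared distal regions, 14.3%, and in 14.4% of all 26833 shared distal regions, searched on both strands over the regions as listed. By gene, 4 were in Ntm, 2 in Lsamp, 1 each in Opcml and Negr1, and 0 in Iglon5. All 8 regions had a footprint over a CTCF match in both libraries. With up to 1 mismatch to the motif, a search chosen after the data were seen, 21 of 56 (37.5%) matched and 37.6% of all did.

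Other motifs were searched in the same way. The E-box CAGATG, bound by neuronal factors such as NEUROD, was in 13 of 56 regions (23.2%, and 21.2% of all), and the E-box CAGCTG in 11 (19.6%, and 18.4% of all). The nuclear factor I motif TTGGCA was in 17 (30.4%, and 20.3% of all). The AP-1 motif TGACTCA, found in 3.38% of all, was in 0 of 56. With so few regions these shares are given as they are, with no test.

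At the starts, Negr1 held a match that is rare among promoters. Its stretch over the start held a match to the palindromic RFX motif at bases 134 to 147, with 2 of its 14 bases in footprints of both libraries. That motif was found in 0.379% of 21346 shared promoter regions and in 1 of the 15 of the family. It was 1 hit from a search of many motifs, with no test. The homeodomain motif TAATTA was likewise in 1 of 15 (6.67%, and 1.16% of all). The GC box GGGCGG was in 7 of 15 (46.7%, and 53.2% of all), and no CTCF match was found in the 15, where 2.81% of all had one. The CTCF search with up to 1 mismatch was run on distal regions only, so near matches at the starts were not counted. The printed stretch of the outer Lsamp start holds such a near match, differing from the motif at 1 base and wholly in capitals. A match is a run of letters in the reference and not evidence that the protein was bound.

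Footprints in the shared distal regions numbered 140 in replicate 1, of which 95 were also found in replicate 2, counting each footprint once (67.9%, and 72.0% over all shared distal regions). At least 1 such recurrent footprint was seen in 22 of 24 regions of Ntm, 16 of 17 of Lsamp, 5 of 6 of Opcml, 2 of 2 of Iglon5 and 2 of 7 of Negr1. In all these were 47 of 56 (83.9%), where 88.7% of all shared distal regions had one. The low Negr1 regions carried 0.652 and 0.931 footprints per 100 bp, where all shared distal regions carried 1.44 and 1.61. The regions with most recurrent footprints were the printed ones in Ntm (5) and Opcml (4), chr16:41551981-41552320 and chr16:40466721-40466880 in introns 3 and 1 of Lsamp, tied at 4 (heights of 1.25 and 0.972, and of 1.06 and 1.10), chr3:157109478-157109660 in Negr1 intron 4 (3, at 0.704 and 0.628) and chr7:43470544-43470604 by Iglon5 (2).

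For comparison, 42 other adhesion genes of the immunoglobulin superfamily (cell surface proteins such as the contactins, NCAMs and nectins) were listed. Of these, 36 were open in both libraries (85.7%), 36 in replicate 1 (59.6% of all genes) and 41 in replicate 2 (64.0% of all genes), and Cntn3, a contactin, was closed in both. Dscam, Igsf21, Cntn2, Mcam and L1cam were open in replicate 2 only. Their median was 3 shared distal regions. The most were in Kirrel3 with 16, Cntnap2, Dscam and Dscaml1 with 13 each, and Igsf21 with 12, a count that Sdk2 equalled. By count, Ntm with 24 and Lsamp with 17 exceeded every gene of the list. The lead of Lsamp over Kirrel3 was narrow, in a locus of 2217 kb against 571 kb. Lsamp gave 14 with equal numbers of regions and 14 with a reciprocal overlap of 50%. The 17 of the list with long loci had a median of 0.576 per 100 kb, where Ntm had 2.43, Lsamp 0.767 and Opcml 0.520. Of the 17, 4 were denser than Ntm: Sdk2 with 3.86, Dscaml1 with 3.75, Kirrel3 with 2.80 and Ncam1 with 2.53 per 100 kb.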

How the data were processed

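DNase-seq was measured in 2 libraries of 1 group, numbered as biological replicates by the labels. Per the labels the assembly is mm10. Region heights are signal values the authors deposited with each region, and the authors' false discovery rates per base, taken as adjusted p-values, stop at 0.05. In the deposited footprint lists all rows show the same p-value, 0.01, which was treated as a cut-off. The sources used here do not give the caller, its thresholds, how heights were normalised or the sequencing depth, and no precision from depth could be stated.

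The shorter region list was the main one. Genes and starts were from GENCODE M21, with sequence from the RefSeq FASTA of GRCm38, using Python 3.11.15, pandas 2.3.3 and numpy 2.4.6. The counting was tested on simulated data and recovered 200 of 200 planted genes. The members and lists were chosen with earlier results of these data known. The named genes follow a rule: every member start, the highest shared distal region and the one with most recurrent footprints per member, the 5 richest and all closed adhesion genes, and the 2 nearest genes in length and count. Alternatives covered list, region strength, equal numbers, overlap, locus, promoter distance, window and each replicate alone. The count of 1 marker list is not reported here.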

Additional observations from a re-analysis of the deposited data

How the results depend on the processing

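The 8 open start groups stayed 8 under every alternative run except with the stronger 50% of regions, which left 6. Shared distal regions moved most with the list: 56 became 110 with the longer lists and 17 with the stronger 50% of regions, and the other 8 alternatives gave 42 to 76, with 61 without replicate 2 and 76 without replicate 1. Recurrent footprints at the starts and shared distal regions numbered 123, and counting each library alone gave 196 without replicate 2 and 211 without replicate 1. The CTCF count of 8 became 21 with 1 mismatch allowed. By gene, Ntm gave 19 to 36 apart from 6 with the stronger regions, where Lsamp gave 10 and so exceeded it. Opcml gave 14 in replicate 2 alone, Negr1 4 in the gene body only and 3 at a promoter distance of 2500 bp, and Iglon5 0 in the gene body only and 0 with a reciprocal overlap of 50%. The open adhesion genes ranged from 36 to 41. No paired analysis was possible because there is 1 group and no test. With 1 group, heights and counts limit only what these tissue samples show, and depth is unknown.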
